A study of Mus musculus with 5 samples.

Results

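The genes described here encode the enzymes that build cholesterol and fatty acids, the enzymes that activate fatty acids, and the proteins that switch these pathways on and off. They were chosen by symbol from textbook pathway membership, 35 genes of the 55250 with a usable symbol in the expression table. The members comprise 15 enzymes of the sterol pathway, 10 genes of fatty acid synthesis and desaturation, 5 acyl-CoA synthetases and 5 regulators. RNA was compared between 3 lung libraries (replicates 1, 2 and 3) and 2 tumor libraries (replicates 2 and 3) of mice. The labels give all 5 libraries as wild-type (WT) primary PMN-MDSCs, polymorphonuclear myeloid-derived suppressor cells, neutrophil-like myeloid cells known for dampening T cell responses in hosts with tumors. Each library came from at least 2000000 sorted cells and is stated as 20000000 paired reads. The sources used here do not give the strain, age, tumor model, sort markers or any treatment, or say whether libraries came from separate animals. The p-values therefore measure only library-to-library spread, which may be technical.

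Cells make sterols from acetyl-CoA through mevalonate, isoprenoid diphosphates and squalene, and the last steps turn lanosterol into cholesterol. Fatty acid synthesis starts from the same acetyl-CoA, and elongases and desaturases then lengthen the chains and add double bonds. Both pathways are driven by the SREBP transcription factors, which SCAP escorts out of the endoplasmic reticulum when sterol is scarce and which INSIG proteins hold back when sterol is plentiful. Neutrophil-lineage cells use fatty acids for membranes, lipid droplets and lipid mediators, and dividing cells make sterols and fatty acids for new membrane.

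Values are TPM, the number of transcripts of a gene per 1000000 transcripts, which are corrected for transcript length, so levels of different genes can be set side by side. TPM keeps no read counts, and the depth behind a value is unknown. Differences are log2(TPM + 1), tumor minus lung, with their standard error (SE). A gene was called higher or lower where its limma adjusted p was under 0.05 and its difference reached 1.5-fold. Folds are ratios of mean TPM, and means are given ± SD (n = 3 lung, n = 2 tumor).

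The tumor libraries carried little RNA of the cell type on their label. All 25 pan-leukocyte genes listed were lower in tumor, and their summed level, 16888 to 17741 TPM in the lung libraries, was 835 TPM in tumor replicate 2 and 2368 TPM in tumor replicate 3. All 14 neutrophil markers were lower too, with sums of 37753 to 63747 TPM for lung and of 1167 and 3967 TPM for tumor. Of 12 epithelial markers 11 were higher, and their sum of 58.2 to 119 TPM for lung compared with 6616 and 6641 TPM for tumor. The 8 proliferation genes were all higher, at 28.0 to 28.5 TPM in lung and 343 and 255 TPM in tumor. Of 8 fibroblast markers 5 were higher, with sums of 21.8 to 26.3 TPM for lung and of 1261 and 224 TPM for tumor. Macrophage markers went both ways, with 3 of 8 higher (C1qa, C1qb and C1qc), 3 lower (Adgre1, Csf1r and Cd68), and sums of 683 to 774 TPM for lung and of 453 and 1063 TPM for tumor. All 8 endothelial markers were lower, with sums of 196 to 355 TPM for lung and of 18.9 and 33.9 TPM for tumor. No gene of the lists named so far was at 0 in every library of a tissue. Of 8 alveolar and airway markers 7 were tested and 6 were lower, with sums of 137 to 634 TPM for lung and of 6.91 and 15.1 TPM for tumor, and Sftpa1, Scgb3a2 and Lamp3 were listed at 0 in both tumor libraries. Of 8 fat cell markers 3 were tested and all 3 were lower, with sums of 64.6 to 81.5 TPM for lung and of 4.86 and 9.70 TPM for tumor. Among them the fat cell hormone gene Adipoq did not exceed 0.450 TPM in any library, Lep was listed at 0 in all 5, and Cfd was listed at 0 in both tumor libraries. The part of these differences in cell content in the results that follow was not tested. In such bulk samples, fewer cells of a type and less RNA per cell cannot be told apart.

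Most of the genes were higher in tumor. Of the 35 members, all of which passed the filter of a mean of at least 1 TPM, 25 rose, 4 fell and 6 were not called. Among all 16387 genes tested, 31.6% were called higher and 27.0% lower, 58.6% in all. These shares are the background for every count of called genes in the lists below. The median difference of the members was 1.53, against 0.018 over all tested genes. Both tumor values lay above all lung values for 27 members and below them for 5, and the groups overlapped for Mvd, Scd1 and Insig1. Over all tested genes these shares were 39.9% above and 35.7% below. Fads2 and Acsbg1 had lung means under 1 TPM and passed the filter through their tumor values.

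**Figure D1:**
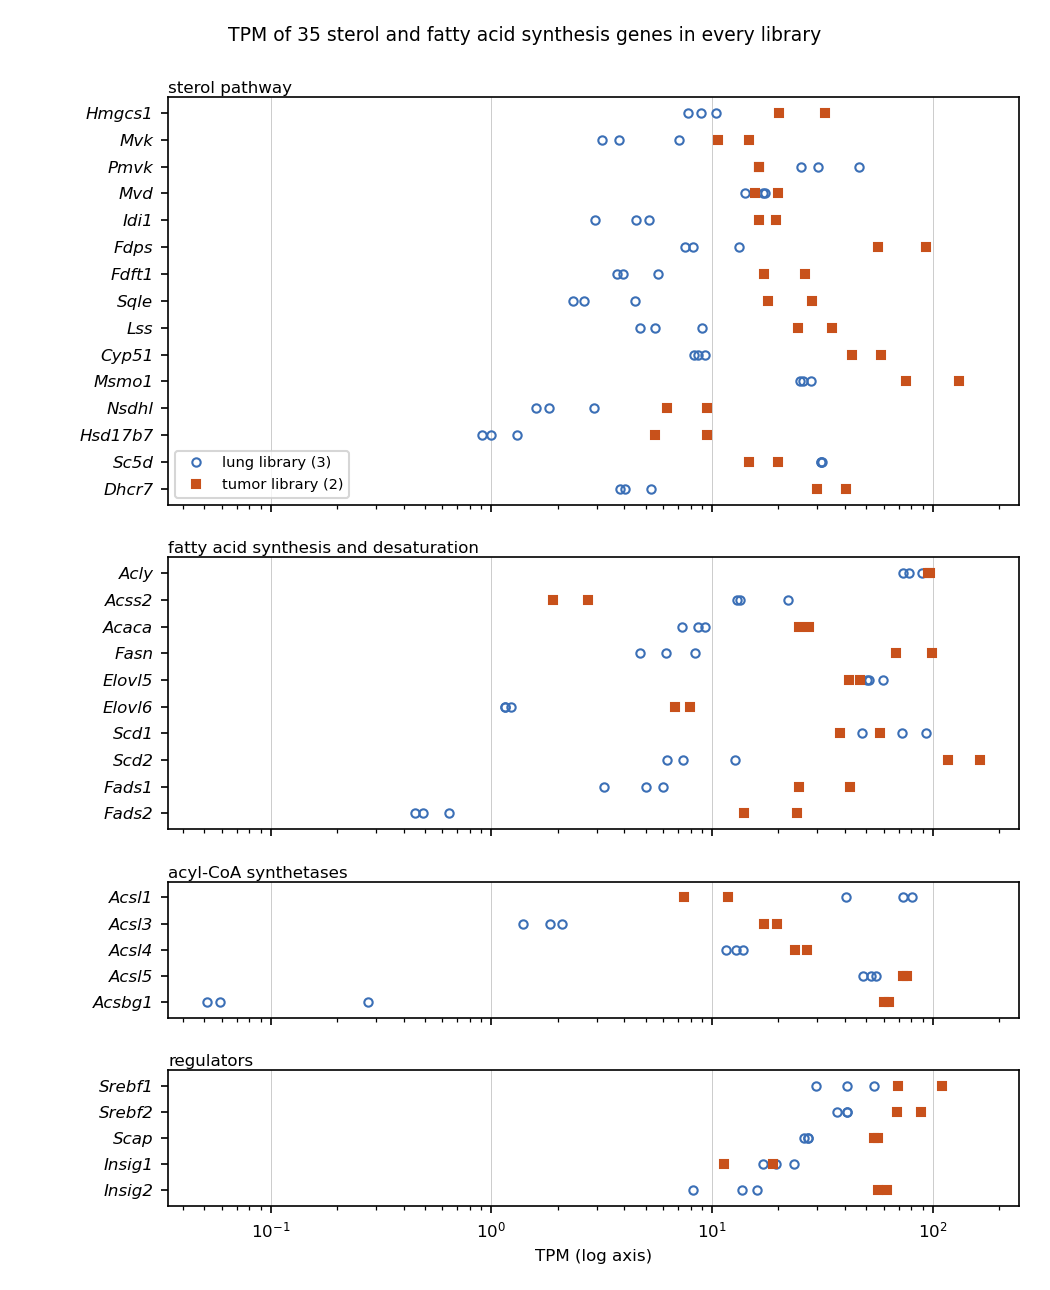
TPM (log axis) of each of the 35 members in every library, in 4 panels by role, with open circles for the 3 lung libraries and filled squares for the 2 tumor libraries. Squares lie to the right of all circles for 27 genes, while Pmvk, Sc5d, Acss2, Elovl5 and Acsl1 have both squares to the left; when libraries are centred on leukocyte genes, the difference of these 5 is positive.

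The order of levels changed between the tissues. In lung the most abundant members per length were Acly at 80.3 ± 8.04 TPM, Scd1 at 71.2 ± 22.8 TPM, Acsl1 at 64.7 ± 21.3 TPM, Elovl5 at 53.9 ± 5.15 TPM and Acsl5 at 52.0 ± 3.52 TPM. The spreads of neighbours in this order overlapped. In tumor the order was led by Scd2 at 141 ± 32.3 TPM, Msmo1 at 104 ± 39.3 TPM, Acly at 96.3 ± 0.968 TPM, Srebf1 at 90.1 ± 29.0 TPM and Fasn at 83.9 ± 22.0 TPM, again with overlapping spreads. Acly, which splits citrate to supply cytosolic acetyl-CoA, was thus among the leading 3 in both tissues.

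Most of the sterol pathway enzymes among the members were higher in tumor. Of 15 enzymes, 12 were higher in tumor by 2.71-fold to 8.06-fold, 2 were lower and 1 was not called, with a median difference of 1.89. Their summed level was 157 to 171 TPM in the lung libraries and 555 and 371 TPM in the tumor libraries, 2.80-fold more on average. Without Pmvk, Sc5d and Mvd the sums were 74.4 to 95.7 TPM for lung and 499 and 324 TPM for tumor.

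In the mevalonate stage the responses were uneven. Hmgcs1, which condenses acetyl-CoA units to HMG-CoA at the entry of the pathway, was at 10.4, 7.81 and 8.94 TPM in lung and at 32.4 and 20.1 TPM in tumor, a difference of 1.41 ± 0.26 (SE, limma adjusted p = 0.0079). The Hmgcs1 call ended in a fit with a replicate block taken from the titles (1.50, limma adjusted p = 0.052). Mvk, mevalonate kinase, stood at 7.07, 3.79 and 3.17 TPM in lung and at 14.7 and 10.6 TPM in tumor (1.31 ± 0.35, limma adjusted p = 0.0259). Both had tumor values above every lung value, but the Mvk call ended without lung replicate 2, lung replicate 3, tumor replicate 2 or tumor replicate 3, with limma adjusted p-values of 0.0751, 0.0626, 0.171 and 0.0777. Pmvk, which adds the next phosphate, went the other way, from 30.1, 46.1 and 25.4 TPM in lung to 16.3 and 16.4 TPM in tumor (-0.96 ± 0.28, limma adjusted p = 0.0343). The Pmvk call ended without lung replicate 1 (limma adjusted p = 0.0654), tumor replicate 2 (limma adjusted p = 0.153) or tumor replicate 3 (limma adjusted p = 0.132). Rescaling by median ratios ended it too (-0.79, limma adjusted p = 0.0993), as did rescaling without mitochondrially encoded genes (-0.84, limma adjusted p = 0.0556), and centring on leukocyte genes turned it to 2.50. Mvd, mevalonate diphosphate decarboxylase, was at 14.1, 17.4 and 17.0 TPM in lung and at 19.9 and 15.6 TPM in tumor. Its groups overlapped and its difference of 0.13 had a 95% interval from -0.36 to 0.62.

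From the isoprenoid diphosphates to lanosterol, 5 of 5 enzymes rose. Idi1, which isomerises isopentenyl diphosphate, was at 4.51, 2.95 and 5.19 TPM in lung and at 19.5 and 16.3 TPM in tumor (1.88 ± 0.26). Fdps, farnesyl diphosphate synthase, was at 13.3, 7.53 and 8.20 TPM in lung and reached 93.2 and 56.7 TPM in tumor (2.83 ± 0.34, limma adjusted p = 0.00237). This 7.75-fold rise was the second largest of the route. Fdft1, squalene synthase, went from 4.44 ± 1.07 to 21.8 ± 6.45 TPM (2.06 ± 0.27). Its exons share 774 bases, 18.3% of their length, with exons of Ctsb on the opposite strand, a gene at 404 TPM on average, and no source used here states that strand was used, so its value is uncertain. Sqle, the squalene epoxidase that commits squalene to sterols, was at 4.49, 2.35 and 2.62 TPM in lung and at 28.4 and 18.01 TPM in tumor (2.55 ± 0.32, limma adjusted p = 0.00279). Lss, lanosterol synthase, rose from 6.42 ± 2.30 to 29.9 ± 7.46 TPM (2.08 ± 0.32).

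Of the 6 members that act after lanosterol, 5 rose and 1 fell. Cyp51, the lanosterol demethylase, was at 8.32, 9.32 and 8.61 TPM in lung and at 58.4 and 42.9 TPM in tumor (2.39 ± 0.19, limma adjusted p = 0.00126). Msmo1, the sterol C4-methyl oxidase, was at 28.2, 25.1 and 25.8 TPM in lung and at 132 and 76.0 TPM in tumor (1.89 ± 0.27). The 3 lung values of each gene lay close together, and both tumor values stood well apart from them. Nsdhl and Hsd17b7, which work with Msmo1 to remove the C4 methyl groups, rose from 2.11 ± 0.710 to 7.87 ± 2.30 TPM (1.51 ± 0.30) and from 1.07 ± 0.208 to 7.50 ± 2.78 TPM (2.00 ± 0.29). The Nsdhl call ended without tumor replicate 2 (1.24, limma adjusted p = 0.0717). Dhcr7, the reductase that finishes cholesterol, had the largest fold of the route at 8.06-fold, from 5.26, 3.82 and 4.01 TPM in lung to 40.5 and 29.96 TPM in tumor (2.75 ± 0.22, limma adjusted p = 0.00128). Sc5d, the sterol C5 desaturase that acts just before it, was at 31.2, 31.2 and 31.6 TPM in lung and at 19.9 and 14.7 TPM in tumor. That 1.81-fold fall (-0.84 ± 0.18, limma adjusted p = 0.013) was positive, at 2.62, when libraries were centred on leukocyte genes. In lung Sc5d, Pmvk and Msmo1 were the most abundant of the 15 enzymes, and in tumor Sc5d and Pmvk stood below most of them.

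Promoter sequences of the sterol enzymes are shown because 12 of the 15 members moved together. RefSeq promoter windows of build GRCm38.p6 were found for 29 of the 35 members, and the 250 bases before each start were searched on both strands. The members without a window were Fdps, Fdft1, Sqle, Scd1, Scd2 and Fads1. The letters TCACCCCAC, a form of the sterol response element that SREBP binds, were found for Hmgcs1 and Acsl1, 2 of 29 members, against 0.555% of all genes with a window. The looser TCACNCCAC, which contains it, found the same 2 members, against 1.22% of all genes. Here the match is in capitals and the sequence reads along the strand of the gene. The Hmgcs1 window lies at chr13:119690184-119690252 (GRCm38.p6, plus strand), 128 bases before the start. The Acsl1 window lies at chr8:46490860-46490928 (GRCm38.p6, plus strand), inside the gene, 67 bases before its second listed start, with the match on the opposite strand.
Hmgcs1: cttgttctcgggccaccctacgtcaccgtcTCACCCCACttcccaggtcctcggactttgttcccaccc
Acsl1: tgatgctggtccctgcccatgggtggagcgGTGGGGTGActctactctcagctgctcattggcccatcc
The 2 genes with the element moved in opposite directions in the TPM as deposited, Hmgcs1 up and Acsl1 down. Centring on leukocyte genes adds the same amount to every gene, and on that scale the differences of all 35 members were positive. Hmgcs1 was then at 4.87 and called higher, Acsl1 at 0.86 and not called, and the median of all tested genes was 3.48.

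The letters CCAAT are the core bound by the factor NF-Y that works beside SREBP. All 12 sterol enzymes with a window had these letters in at least 1 window. For Dhcr7 the window of its most upstream start held none. Counting any window of a gene, the letters were found for 23 of 29 members. They were found for 37.5% of all genes with a window and for 40.2% of tested genes with one. The match nearest the start is shown in capitals for 3 enzymes that rose (Hmgcs1, Lss and Nsdhl), 1 that was not called (Mvd) and the 2 that fell in the TPM as deposited (Pmvk and Sc5d), a choice made after their values were seen. ATTGG is the same core read on the other strand.
Hmgcs1: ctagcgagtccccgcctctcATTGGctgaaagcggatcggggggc
Lss: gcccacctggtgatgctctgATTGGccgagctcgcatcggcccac
Nsdhl: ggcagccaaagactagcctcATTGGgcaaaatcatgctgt
Mvd: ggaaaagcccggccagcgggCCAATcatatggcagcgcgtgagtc
Pmvk: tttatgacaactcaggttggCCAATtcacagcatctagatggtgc
Sc5d: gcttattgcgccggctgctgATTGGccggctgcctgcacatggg
In build GRCm38.p6 these stretches lie at chr13:119690286-119690330 (plus strand) for Hmgcs1, chr10:76531523-76531567 (plus) for Lss and chrX:72918481-72918520 (plus) for Nsdhl. Those of Mvd, Pmvk and Sc5d lie at chr8:122443425-122443469 (minus), chr3:89454385-89454429 (plus) and chr9:42264301-42264344 (minus). The core was therefore present in front of enzymes that rose, enzymes that fell and the one not called. The palindrome CACGTG was found for 6 of 29 members, against 6.86% of all genes and 9.58% of tested genes. GGGCGG, the letters bound by Sp1, was found for 22 of 29 members, against 35.4% of all genes and 62.4% of tested genes. Such matches describe letters only.

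Other enzymes of sterol and isoprenoid synthesis were split. Of 9 further genes, all tested, 4 rose (among them Acat2, Tm7sf2 and Nus1), 1 fell (Lbr) and 4 were not called (among them Ggps1, Ebp and Dhdds), with a median difference of 0.56. Acat2, the cytosolic thiolase that feeds Hmgcs1, rose from 2.82 ± 0.211 to 13.9 ± 2.10 TPM (1.96 ± 0.19). Lbr, a nuclear envelope protein that is also a sterol reductase, was at 337, 307 and 399 TPM in lung and at 32.1 and 42.5 TPM in tumor (-3.19 ± 0.20, limma adjusted p = 0.00101), a difference that was 0.27 and not called after centring on leukocyte genes. Tm7sf2, the second sterol reductase of that step, rose from 2.82 ± 1.17 to 7.57 ± 2.08 TPM (1.19 ± 0.35).

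RNA of the fatty acid synthase was higher in tumor, while of the genes that supply acetyl-CoA, Acly was not called and Acss2 was lower. Of the 10 genes of synthesis and desaturation, 6 rose by 3.10-fold to 36.1-fold, 1 fell and 3 were not called, with a median difference of 1.73. Fasn, the fatty acid synthase, was at 8.39, 4.73 and 6.17 TPM in lung and at 99.4 and 68.3 TPM in tumor, a 13.0-fold rise (3.52 ± 0.29, limma adjusted p = 0.0013). Acaca, the acetyl-CoA carboxylase that makes its malonyl-CoA, stood at 9.29, 7.34 and 8.64 TPM in lung and at 27.5 and 24.7 TPM in tumor (1.53 ± 0.17, limma adjusted p = 0.00217). In both genes every tumor value lay far above every lung value. Acly was at 78.1, 73.7 and 89.3 TPM in lung and at 96.9 and 95.6 TPM in tumor, values that did not overlap but differed by only 0.26, with a 95% interval from -0.13 to 0.65. Acss2, which makes acetyl-CoA from acetate instead of citrate, was 6.96-fold lower, at 13.4, 13.0 and 22.1 TPM in lung and at 1.90 and 2.74 TPM in tumor. This difference of -2.34 ± 0.30 (limma adjusted p = 0.00278) was 1.12 and not called (limma adjusted p = 0.199) after centring on leukocyte genes. Of the TPM of Acly and Acss2 together, Acss2 held 14.7%, 15.0% and 19.8% in lung and 1.92% and 2.79% in tumor. By GENCODE M21 (GRCm38) Fasn lies on chromosome 11 from 120805846 to 120824547 on the minus strand and Acss2 on chromosome 2 from 155517948 to 155585724 on the plus strand.

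The stearoyl-CoA desaturases, which put the first double bond into saturated chains, exchanged places. Scd1 was at 93.2, 47.6 and 72.7 TPM in lung and at 58.0 and 38.0 TPM in tumor, with overlapping groups (-0.54 ± 0.35, limma adjusted p = 0.236). Scd2 was at 12.7, 6.24 and 7.39 TPM in lung and at 164 and 118 TPM in tumor, a 16.0-fold rise (3.89 ± 0.34, limma adjusted p = 0.0014). Scd1 held 88.0%, 88.4% and 90.8% of the TPM of the pair in lung and 26.2% and 24.4% in tumor, a share that no scaling of a library changes. The paralogues Scd3 and Scd4 did not exceed 0.481 TPM and 0.135 TPM in any library. These 4 genes are neighbours on chromosome 19, where Scd2 runs from 44293674 to 44306864 and Scd1 from 44394455 to 44407879 (GRCm38, GENCODE M21). They share sequence, so the division of reads among them is uncertain.

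The polyunsaturated desaturases and the elongases were uneven as well. Fads1, the delta-5 desaturase, was at 5.02, 3.24 and 6.02 TPM in lung and at 42.0 and 24.7 TPM in tumor (2.56 ± 0.34, limma adjusted p = 0.00303). Fads2, the delta-6 desaturase that acts before it, was at 0.645, 0.491 and 0.449 TPM in lung and at 24.3 and 13.9 TPM in tumor (3.67 ± 0.29, limma adjusted p = 0.00125). Fads2 had the larger fold, 36.1-fold against 7.01-fold, from a very low lung level, and its share of the pair went from between 6.94% and 13.2% in lung to 36.6% and 36.0% in tumor. Elovl6, which lengthens saturated chains from palmitate, rose 6.25-fold, from 1.22, 1.16 and 1.15 TPM to 7.93 and 6.76 TPM (1.94 ± 0.20, limma adjusted p = 0.00186). Elovl5, the elongase of polyunsaturated chains, was at 51.6, 50.3 and 59.8 TPM in lung and at 47.0 and 42.0 TPM in tumor. It was not called (-0.27 ± 0.16, limma adjusted p = 0.198), and its 95% interval ran from -0.68 to 0.14.

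**Figure D2:**
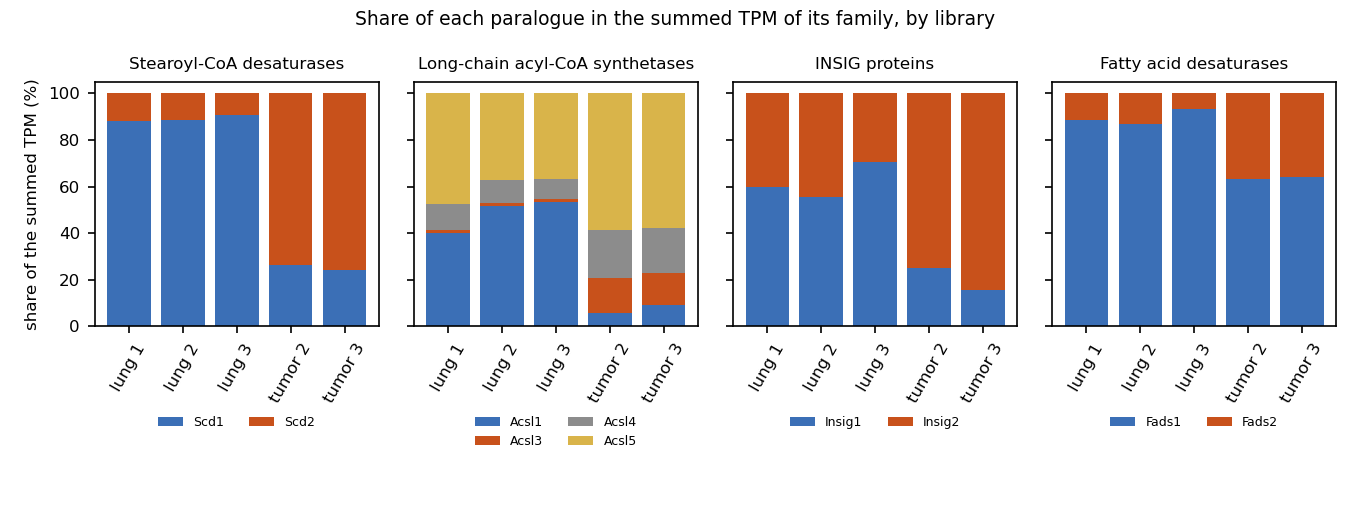
Share of each paralogue in the summed TPM of its family (percent, stacked bars from 0) in each of the 3 lung and 2 tumor libraries, for the stearoyl-CoA desaturases, the long-chain acyl-CoA synthetases, the INSIG proteins and the polyunsaturated desaturases. Scd2 grows from at most 12.0% to at least 73.8% of its pair, and Acsl1 shrinks from at least 39.9% to at most 9.36% of its family.

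Among the further genes of fatty acid synthesis, most of those tested were higher. Of 23 listed, 15 were tested, of which 9 rose, 2 fell and 4 were not called, with a median difference of 1.68. Hsd17b12, the ketoacyl-CoA reductase of the elongation cycle, rose from 10.5 ± 1.59 to 52.6 ± 4.34 TPM (2.23 ± 0.19), and Elovl7 from 2.02 ± 0.809 to 16.2 ± 0.3601 TPM (2.54 ± 0.28). Slc25a1, the mitochondrial citrate carrier that feeds Acly, rose from 14.9 ± 2.17 to 53.8 ± 3.69 TPM (1.79 ± 0.18). Me1, the malic enzyme that makes NADPH for Fasn, rose from 0.423 ± 0.239 to 7.20 ± 1.35 TPM (2.53 ± 0.28) and passed the filter through its tumor values. Hacd1, which rose from 0.780 ± 0.124 to 17.5 ± 10.6 TPM (3.25 ± 0.41), also passed it through its tumor values. The 2 genes that fell were Hacd4, a dehydratase of elongation (31.0 ± 1.81 to 2.86 ± 2.18 TPM), and Acss1, the mitochondrial acetate enzyme (17.4 ± 4.56 to 1.72 ± 1.27 TPM). Both acetate-activating enzymes, Acss1 and Acss2, were thus lower in tumor in the TPM as deposited. After centring on leukocyte genes the differences of Hacd4 and Acss1 were 0.29 and 0.66, neither called. Among the 8 genes below the filter, Acacb, the carboxylase isoform of the mitochondrial surface, was at 1.48, 0.288 and 1.82 TPM in lung and at 0.0295 and 0.0711 TPM in tumor. Others of these low genes went both ways. Mlxipl was at 0.942 ± 0.165 TPM in lung and at 0.0722 ± 0.00402 TPM in tumor. Elovl4 was at 0.0117 ± 0.0102 TPM in lung and at 0.843 ± 0.281 TPM in tumor.

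Acyl-CoA synthetases, which attach fatty acids to coenzyme A so that they can enter lipids or be burned, went in both directions. Of the 5 members, 3 rose, 1 fell and 1 was not called, with a median difference of 0.94. Acsl1, the isoform that led in lung replicates 2 and 3, was at 40.5, 73.0 and 80.6 TPM in lung and at 7.49 and 11.8 TPM in tumor, 6.72-fold lower. This difference of -2.60 ± 0.37 (limma adjusted p = 0.00385) was 0.86 and not called (limma adjusted p = 0.278) after centring on leukocyte genes. Acsl3, an isoform of the endoplasmic reticulum and lipid droplets, was at 1.39, 1.84 and 2.08 TPM in lung and at 19.8 and 17.2 TPM in tumor, a 10.4-fold rise (2.82 ± 0.20, limma adjusted p = 0.00114). Acsl4, which prefers arachidonic acid, was at 11.5, 13.7 and 12.9 TPM in lung and at 26.8 and 23.9 TPM in tumor, 2.00-fold higher (0.94 ± 0.16, limma adjusted p = 0.00651). Acsl5, a mitochondrial and endoplasmic reticulum isoform, was at 48.2, 52.7 and 55.2 TPM in lung and at 76.9 and 73.0 TPM in tumor. Its adjusted p passed (limma adjusted p = 0.0282), but its difference of 0.52 ± 0.14 was under 1.5-fold. It was called with median-ratio rescaling (0.70, limma adjusted p = 0.0142) and with rescaling without mitochondrially encoded genes (0.65, limma adjusted p = 0.0124).

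The summed level of the 4 Acsl genes was 102, 141 and 151 TPM in the lung libraries and 131 and 126 TPM in the tumor libraries, groups that overlapped. What differed was the make-up of that sum. Acsl1 held 39.9%, 51.7% and 53.5% of it in lung and 5.72% and 9.36% in tumor, and Acsl3 held between 1.30% and 1.38% in lung and 15.1% and 13.7% in tumor. Acsbg1, a synthetase of the bubblegum family known from brain and steroid-making tissue, had the largest difference of all 35 members. It was at 0.275, 0.0588 and 0.0512 TPM in lung and at 63.7 and 60.03 TPM in tumor (5.80 ± 0.19, limma adjusted p = 0.000901). The ratio of means was 482, over a lung level too low to give a firm fold. By GENCODE M21 (GRCm38) Acsl1 lies on chromosome 8 from 46471037 to 46536051 on the plus strand and Acsbg1 on chromosome 9 from 54604877 to 54661870 on the minus strand.

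Of 10 further synthetases and fatty acid transport proteins with this activity, 7 were tested. The genes Acsl6, Acsf3 and Slc27a1 rose, Slc27a2 and Slc27a4 fell, and Acsf2 and Slc27a3 were not called. Slc27a1 went from 6.22 ± 2.94 to 40.7 ± 1.52 TPM (2.62 ± 0.39), while Slc27a4 went from 64.2 ± 13.4 to 25.0 ± 3.50 TPM (-1.31 ± 0.22). After centring on leukocyte genes the difference of Slc27a4 was 2.15 and called higher, and that of Slc27a2 was 1.82 and not called. Acsl6 rose from 0.0815 ± 0.0907 to 6.39 ± 2.93 TPM (2.72 ± 0.35) and passed the filter through its tumor values. Slc27a2, with 2.28 ± 0.616 TPM for lung and 0.0394 ± 0.0194 TPM for tumor, passed it through its lung values.

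Regulators of the pathways were higher, apart from Insig1. Of the 5, 4 rose by 2.00-fold to 4.69-fold. Srebf2, the SREBP of sterol synthesis, was at 40.7, 36.8 and 40.8 TPM in lung and at 88.8 and 68.8 TPM in tumor (0.97 ± 0.17, limma adjusted p = 0.0073). Srebf1, the SREBP of fatty acid synthesis, was at 40.8, 29.5 and 54.4 TPM in lung and at 111 and 69.5 TPM in tumor (1.10 ± 0.34, limma adjusted p = 0.0392). The Srebf1 call ended without lung replicate 1, lung replicate 2, tumor replicate 2 or tumor replicate 3, with limma adjusted p-values of 0.0868, 0.0866, 0.218 and 0.0585. Scap, the sterol-sensing escort, had the tightest values of the group, at 27.1, 26.1 and 27.2 TPM in lung and at 53.9 and 56.3 TPM in tumor (1.01 ± 0.14, limma adjusted p = 0.00319). Srebf1 held 44.4% to 57.1% of the TPM of the 2 SREBP genes in lung and 55.4% and 50.3% in tumor, so their balance overlapped between tissues.

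The 2 INSIG genes differed from each other. Insig1, itself a target of SREBP, was at 23.6, 17.1 and 19.5 TPM in lung and at 18.8 and 11.3 TPM in tumor, with overlapping groups (-0.42 ± 0.27, limma adjusted p = 0.237). Insig2 was at 15.9, 13.7 and 8.24 TPM in lung and at 56.5 and 62.0 TPM in tumor, a 4.69-fold rise (2.19 ± 0.30, limma adjusted p = 0.00337). Insig2 accordingly held 29.7% to 44.6% of the pair in lung and 75.0% and 84.6% in tumor. Insig1 lies on chromosome 5 from 28071363 to 28078662 on the plus strand and Insig2 on chromosome 1 from 121304353 to 121332589 on the minus strand (GRCm38, GENCODE M21).

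Genes that process SREBPs and handle finished sterol went both ways. Of 15 tested, 4 rose (among them Mbtps1, Mbtps2 and Stard4), 6 fell and 5 were not called, with a median difference of -0.52. Over all tested genes 31.6% were called higher and 27.0% lower, so going both ways does not set these genes apart. Mbtps1, the first of the proteases that release SREBPs in the Golgi, rose from 17.3 ± 3.49 to 75.1 ± 4.92 TPM (2.08 ± 0.22). Abcg1, a sterol exporter, fell from 159 ± 29.8 to 12.5 ± 12.7 TPM (-3.98 ± 0.70). Soat2, which esterifies cholesterol, fell from 27.2 ± 6.33 to 2.98 ± 2.04 TPM (-2.90 ± 0.40). Mylip, a ubiquitin ligase induced by sterol-sensing receptors, fell from 24.2 ± 0.872 to 3.02 ± 2.10 TPM (-2.75 ± 0.35). Of the same roles, the exporter gene Abca1 (21.0 ± 5.39 and 12.7 ± 5.25 TPM, overlapping) and the esterifying enzyme gene Soat1 (160 ± 14.8 and 111 ± 6.27 TPM, a difference of -0.52 that was under 1.5-fold) were not called. The other 3 that fell were the liver X receptor genes Nr1h2 and Nr1h3 and the cholesterol transporter gene Npc1. After centring on leukocyte genes the difference was -0.52 for Abcg1, 0.56 for Soat2 and 0.71 for Mylip, none called, and 2.66, 2.21 and 2.66 for Nr1h2, Nr1h3 and Npc1. The leukocyte sums given above were lower in the same libraries, and their part was not tested.

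Genes of triglyceride and phospholipid assembly and lipid droplets were more often lower than higher in the TPM as deposited. Of 12 genes of triglyceride and phospholipid assembly and lipid droplets, 7 fell, 1 rose (Plin3) and 4 were not called, with a median difference of -0.88. Dgat1, which completes triglycerides, fell from 779 ± 111 to 63.6 ± 41.0 TPM (-3.75 ± 0.44), and Dgat2 from 113 ± 43.5 to 8.21 ± 5.36 TPM (-3.69 ± 0.49). Pnpla2, the lipase that opens droplets, fell from 211 ± 30.3 to 36.2 ± 13.6 TPM (-2.55 ± 0.28), and Lpcat2, a phospholipid acyltransferase of leukocytes, from 97.5 ± 12.3 to 16.6 ± 5.76 TPM (-2.51 ± 0.26). Of 10 genes of fatty acid oxidation, 3 rose, 3 fell and 4 were not called. These counts lie near the shares of all tested genes, 31.6% higher and 27.0% lower. The 3 that rose were Acadm, Acadl and Acadvl, the acyl-CoA dehydrogenases. The 3 that fell were Cpt1a, Cpt1b and Slc25a20, which act in carnitine-dependent import. Among those not called was Cpt2, the carnitine transferase of the inner membrane. Its levels of 9.13 ± 2.21 TPM for lung and 13.6 ± 7.85 TPM for tumor overlapped (0.44 ± 0.40). Cpt1b had a tumor mean under 1 TPM and passed the filter through its lung values. Acadl went from 18.3 ± 1.74 to 59.7 ± 2.67 TPM (1.65 ± 0.16) and Cpt1a from 58.8 ± 6.70 to 32.5 ± 1.06 TPM (-0.83 ± 0.16). After centring on leukocyte genes the difference was -0.28 for Dgat1, -0.23 for Dgat2, 0.91 for Pnpla2 and 0.95 for Lpcat2, none called, and the other genes named here as lower had positive differences, 2.63 for Cpt1a.

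The 2 tumor libraries were not alike for these genes. Tumor replicate 2 was above tumor replicate 3 for 30 of 35 members, and for 47.4% of all tested genes. The median ratio of replicate 2 to replicate 3 was 1.35 over the members and 1.43 over the sterol pathway, against 1.01 over tested genes above 0 in both. Ratios were highest for Fads2 (1.74), Msmo1 (1.73), Hsd17b7 (1.71) and Fads1 (1.70). Acsl1 (0.636), Acss2 (0.691), Insig2 (0.911), Scap (0.958) and Pmvk (0.995) were lower in replicate 2. The summed pan-leukocyte, neutrophil, macrophage, endothelial, alveolar and fat cell markers were also lower in replicate 2 than in replicate 3, the fibroblast and proliferation sums were higher and the epithelial sums were nearly equal, as given above, and their part in this difference was not tested.

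**Figure D3:**
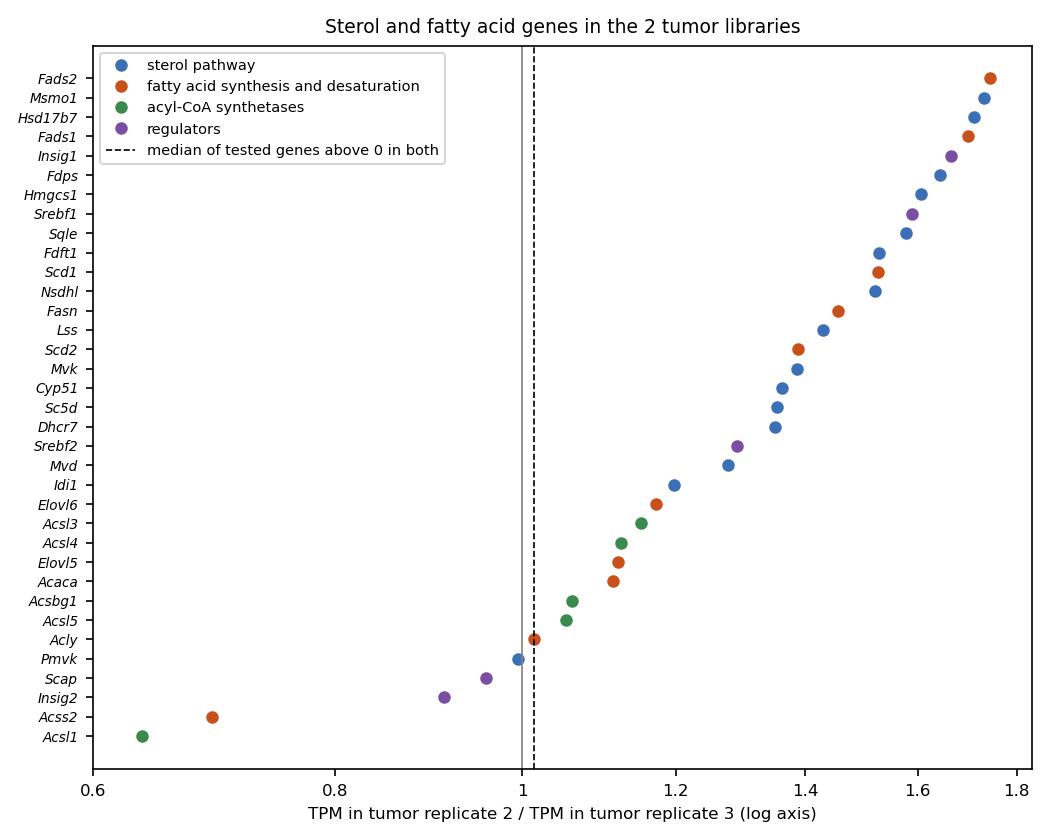
Ratio of TPM in tumor replicate 2 to TPM in tumor replicate 3 (log axis) for each of the 35 members, coloured by role, with a solid line at equal values and a dashed line at the median of all tested genes above 0 in both libraries. Of the members 30 lie to the right of the solid line, and Acsl1 (0.636) and Acss2 (0.691) lie farthest to the left.

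TPM is a share of all transcripts, so each direction depends on what a library is measured against. Centring the libraries on the 25 pan-leukocyte genes moved the median difference of all tested genes from 0.018 to 3.48, and the share of calls that were higher from 53.9% to 99.5%. On that scale 33 of 35 members were called higher and 0 lower in limma, and Acss2 and Acsl1 were not called. All 35 differences were positive on that scale, so at an unadjusted p under 0.05 the count lower was 0 as well. Of all tested genes, 81.9% were higher and 0.397% lower on that scale. Relative to the moved median, 28 members lay above it and 7 below (Pmvk, Sc5d, Acss2, Elovl5, Scd1, Acsl1 and Insig1), and the median of the members was 4.99. Centring adds the same amount to every gene, so these positions restate those in the TPM as deposited.

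**Figure D4:**
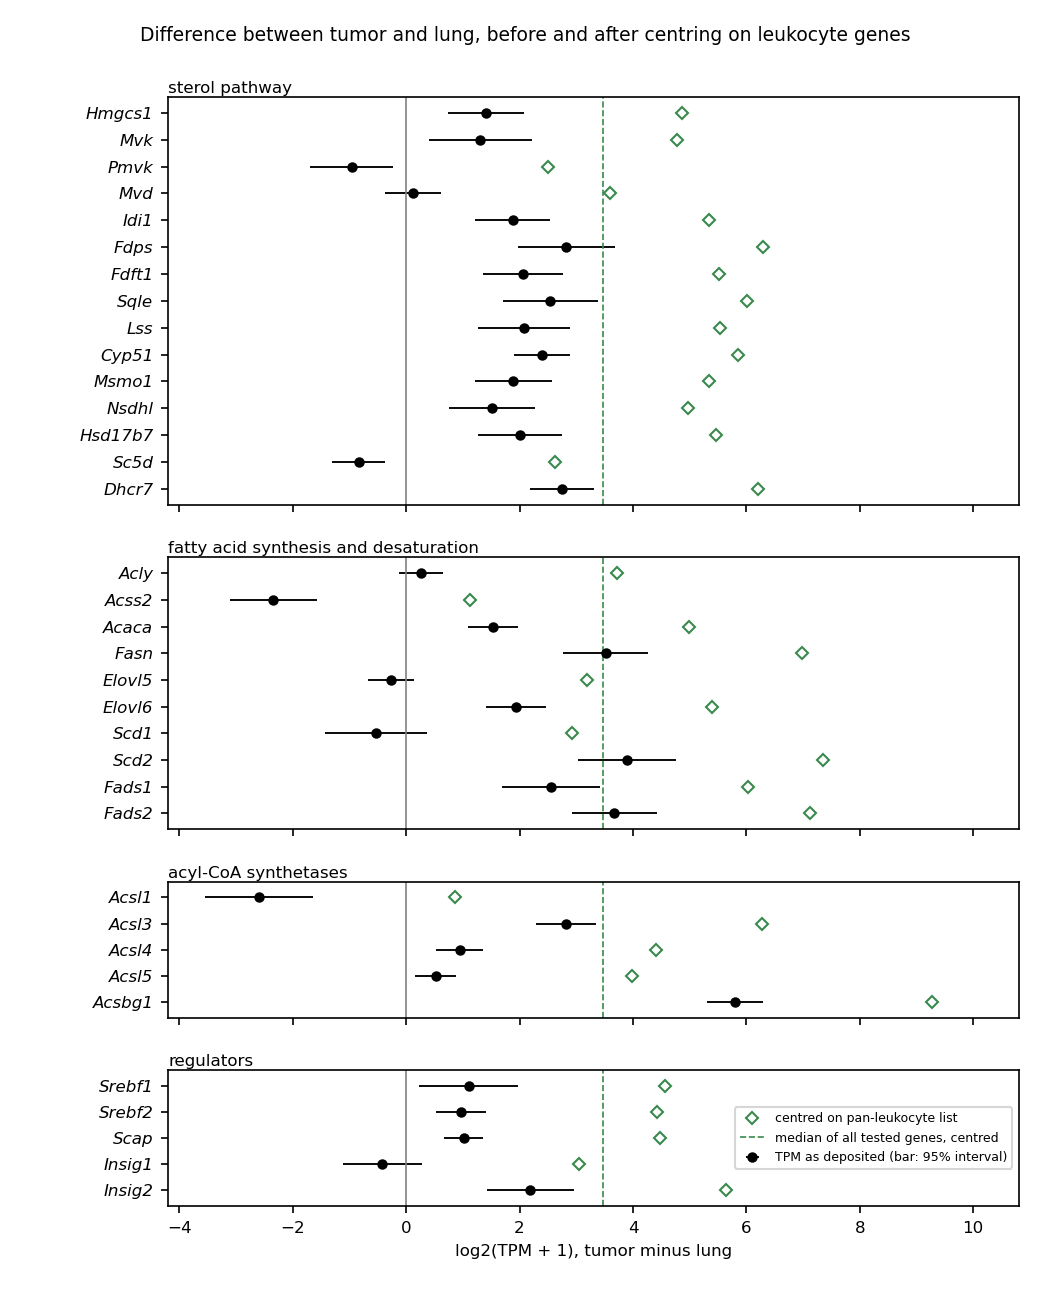
Difference in log2(TPM + 1), tumor minus lung, of each member, in 4 panels by role, as black points with 95% intervals for the TPM as deposited and as green diamonds after centring on pan-leukocyte genes. The dashed green line is the median of all tested genes after centring, 3.48, and the 7 genes whose black point lies to the left of 0 are those whose diamond lies to the left of the dashed line. Centring adds the same amount to every gene.

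The authors' deposited table gives its own comparison of tumor and lung, whose test is not named in the sources used here. Of the 35 members, 0 have a false discovery rate under 0.05 in the authors' deposited table, the lowest being 0.0851 for Insig2, and 223 rows pass in all. At an unadjusted p under 0.05 the authors' deposited table lists 10 members, and limma on the log scale gives 30 at that same limit. The shares of all genes at that unadjusted limit are not given here, so neither count can be read as particular to the members.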

How the data were processed

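RNA-seq of 3 lung and 2 tumor libraries was analysed. The deposited values are gene TPM, which the authors obtained with Salmon 0.9.1 and the M24 mouse transcripts of GENCODE, per the series' design text. TPM sums to 1000000 in each library and keeps no depth. The p-values and false discovery rates in the table are the authors' own, deposited beside the TPM. Of 55276 rows, 26 held spreadsheet dates for symbols and were left out.

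Tissue labels gave the groups, and titles the replicate numbers. Differences were tested two-sided with limma 3.58.1 (R 4.3.3; empirical Bayes with intensity trend) on log2(TPM + 1), pseudocount 1, for genes whose mean over the libraries reached 1 TPM, adjusted by Benjamini-Hochberg over all 16387. With 3 against 2 libraries no exact permutation p can fall below 0.1. The fitting and calling steps were also run on simulated data with known changes, whose outcome is not reported here. Those data had independent noise for each gene and did not model differences in cell content. All members are named, and from each further list up to 4 called genes with the smallest p, or all where a count is 5 or fewer; others named were chosen after their values were seen. Members and lists were chosen with earlier results of these data known. The motif search and the CCAAT sequences were extended to all members after values were seen. Coordinates are of GENCODE M21 (GRCm38), matched by symbol. Alternatives were other pseudocounts, filters, scalings, models and fold limits, leaving out each library and a replicate block. Some genes of the further lists are counted but not reported by name here.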

Additional observations from a re-analysis of the deposited data

How the results depend on the processing

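Of 35 members, 24 kept their direction and their side of the threshold under every alternative tried other than centring on pan-leukocyte genes, and 11 did not. That centring made 13418 genes higher and 65 lower and left 0 members lower. It turned the differences of Pmvk to 2.50, Sc5d to 2.62, Acss2 to 1.12, Elovl5 to 3.19, Scd1 to 2.92, Acsl1 to 0.86 and Insig1 to 3.04, since it adds the same amount to every gene. Under the other alternatives 1 member changed sign, Mvd, which was not called and was -0.039 without tumor replicate 2 and at most 0.29, without tumor replicate 3, as libraries were left out in turn. A fold limit of 2 left 2 members lower, by the stricter limit itself. Without 1 library, 22 to 24 members were higher and 3 to 4 lower, and over all genes 3314 to 4817 were higher and 2900 to 4134 lower, the lowest counts being those without tumor replicate 2. That fit has 1 tumor library, which is assumed to vary like the lung libraries. In a fit with a replicate block taken from the titles, 20 members were higher and 2 lower (Acss2 and Acsl1). Of all genes, 7111 were called against 9609. Lung replicate 1 has no tumor library of its number, so it adds nothing to the difference in that fit. The differences were accordingly those found without lung replicate 1, 1.50 for Hmgcs1 and -1.02 for Pmvk in both fits. Without lung replicate 1 and with no block, 8938 genes were called. The block terms also leave fewer degrees of freedom, and the part of each in the lower count was not tested. The differences between replicates 2 and 3 in lung and in tumor had a correlation across genes of 0.0506. No label says what a shared number means. Neither that silence nor the correlation can tell whether libraries of the same number came from 1 animal. A filter of 5 TPM left 3 members without a value. Rescaling by median ratios and without mitochondrially encoded genes moved the median of all genes to 0.20 and 0.13. Depth is not kept in TPM, and the number of libraries limits the precision.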
